A study of Mus musculus with 6 samples.

Results

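The NF-kB transcription factors and the IkB proteins that bind them were followed here through 10 mouse genes: Rela, Relb, Rel, Nfkb1 and Nfkb2, which encode the subunits, and Nfkbia, Nfkbib, Nfkbie, Nfkbid and Nfkbiz, which encode inhibitors and other IkB proteins. They were chosen by gene name, with no measured value in the rule but with earlier results of these data known, and make up 10 of the 55335 genes listed. All 10 passed the filter on low counts. Total RNA was sequenced from bone marrow-derived macrophages (BMDMs), macrophages grown from marrow progenitors, in 3 libraries from cells given PBS, the vehicle, and 3 from cells given LPS, the bacterial lipopolysaccharide sensed by TLR4, each for 1 h. The comparison shows how the mRNAs of this system stood at an early time of the response. Every library came from C57BL/6 mice with no engineered allele in the labels, and the study used male mice aged 7 to 10 weeks. Marrow was cultured for 6 days with 20% L929-conditioned medium, a source of CSF1, and 10% fetal bovine serum before treatment. The LPS dose of these libraries was not given in the sources used here. The labels number the libraries 1 to 3 in each group and call these numbers batches. The study's methods say in general that experiments were independently repeated, but nothing states for these libraries that they came from separate animals or cultures, so p-values measure the spread between these samples, which may be technical.

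NF-kB is a family of dimers built from subunits that share a Rel homology domain. RelA, RelB and c-Rel carry transactivation domains, whereas the products of Nfkb1 and Nfkb2 are made as long precursors, p105 and p100, and processed to p50 and p52. Classical IkB proteins hold dimers in the cytoplasm until the IkB kinase complex marks them for degradation, and several IkB genes are themselves NF-kB targets, so that the inhibitor is made anew after the signal. In macrophages this circuit carries much of the response to bacterial products.

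RefSeq promoter windows, 250 bases before to 50 after a transcript start on GRCm38.p6, were at hand for 7 of the 10 genes, 11 windows in all; Nfkb1, Relb and Nfkbiz were not among them. They were searched for the 10-base kB consensus that NF-kB dimers bind, on both strands and counting overlapping matches. A match was held by 7 of the 11 windows (63.6%) and by 5 of the 7 genes. Among all 32851 windows of that length, 2779 held a match (8.46%, exact binomial 95% interval 8.16 to 8.77%). This share is per window. A gene with several windows has more chances of a match, and the share over all genes is not given here. Windows of 1 gene can overlap, and the same GGGACTTTCC was counted in 2 of the windows of Nfkb2. The 4 windows below hold a match and belong to 2 subunit and 2 inhibitor genes, and that of Rela is shown as the subunit window with none. Each is given 5′ to 3′ on the strand of its gene with the matched bases in capitals.
Nfkbia, chr12:55492598-55492897, minus strand: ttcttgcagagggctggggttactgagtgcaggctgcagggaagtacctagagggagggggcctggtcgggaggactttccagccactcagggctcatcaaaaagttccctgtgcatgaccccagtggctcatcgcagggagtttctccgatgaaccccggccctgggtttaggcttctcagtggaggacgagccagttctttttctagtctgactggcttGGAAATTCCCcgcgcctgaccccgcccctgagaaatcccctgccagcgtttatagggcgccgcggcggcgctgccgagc
Nfkbie, chr17:45555450-45555749, plus strand: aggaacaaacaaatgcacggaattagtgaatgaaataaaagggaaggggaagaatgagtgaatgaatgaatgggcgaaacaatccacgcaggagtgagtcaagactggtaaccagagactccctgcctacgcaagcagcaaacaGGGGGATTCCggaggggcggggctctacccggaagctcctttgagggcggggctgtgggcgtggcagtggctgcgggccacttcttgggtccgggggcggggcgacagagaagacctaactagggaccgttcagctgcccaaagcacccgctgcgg
Rel, chr11:23770920-23771219, minus strand: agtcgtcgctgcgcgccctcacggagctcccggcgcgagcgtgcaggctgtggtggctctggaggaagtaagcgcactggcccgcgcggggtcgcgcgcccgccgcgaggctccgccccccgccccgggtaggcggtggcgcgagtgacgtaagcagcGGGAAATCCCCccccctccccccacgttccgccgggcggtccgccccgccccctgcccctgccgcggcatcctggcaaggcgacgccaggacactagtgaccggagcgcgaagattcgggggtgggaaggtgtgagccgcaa
Nfkb2, chr19:46304487-46304786, plus strand: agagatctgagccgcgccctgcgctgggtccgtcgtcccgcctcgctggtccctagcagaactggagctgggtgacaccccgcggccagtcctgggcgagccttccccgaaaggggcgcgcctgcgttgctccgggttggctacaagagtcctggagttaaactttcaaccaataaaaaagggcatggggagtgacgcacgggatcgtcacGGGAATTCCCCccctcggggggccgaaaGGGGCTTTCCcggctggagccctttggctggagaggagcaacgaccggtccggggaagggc
Rela, chr19:5637291-5637590, plus strand: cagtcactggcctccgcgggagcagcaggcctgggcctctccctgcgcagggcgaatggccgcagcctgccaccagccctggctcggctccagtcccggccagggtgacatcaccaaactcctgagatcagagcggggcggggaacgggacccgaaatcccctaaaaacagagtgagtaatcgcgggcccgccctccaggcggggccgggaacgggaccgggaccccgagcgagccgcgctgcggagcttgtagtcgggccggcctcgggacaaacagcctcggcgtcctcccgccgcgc

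The match in Nfkbia, GGAAATTCCC, lay 29 to 20 bases upstream of the start. In Nfkb2 the window shown holds 3 matches, of which 2 overlap from 39 to 29 bases upstream and the third, GGGGCTTTCC, lies 11 to 2 bases upstream. Rel holds 2 overlapping matches from 92 to 82 bases upstream, and Nfkbie holds GGGGGATTCC at 106 to 97 bases upstream. One of the 3 windows of Nfkbid holds 2 matches, GGGACTTCCC at 226 to 217 and GGAATTCCCC at 181 to 172 bases upstream. At least 2 matches were found in 1.22% of all windows. The windows of Rela and Nfkbib hold none. A match says only that these letters are present, and binding was not measured in these libraries.

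Library totals ranged from 37787611 to 41516330 counts, and 15687 genes were tested. The mean TMM scaling factor was 1.15 in PBS and 0.869 in LPS libraries. With TMM the median log2 fold change of all tested genes was -0.01, and scaling by library size alone moved it to -0.42, so the changes given below are relative to the TMM median. The macrophage identity of the cells was checked with 8 markers, which were all present. Their sum, most of it Lyz2, was 29745 to 31027 CPM in PBS and 32512 to 32856 CPM in LPS. Summed markers of other cells stood far lower. T cell markers gave 20.6 to 22.6 CPM in PBS and 30.8 to 31.1 in LPS, nearly all of it Cd4, with 1 of 6 above 1 CPM in any library. Of the 6 neutrophil markers, 3 passed 1 CPM, the sum went from 33.6-35.8 to 44.3-46.2 CPM, and Ly6g stayed at or under 3 counts. B cell markers summed to 2.88 to 3.17 and 2.88 to 3.64 CPM with 1 of 5 above 1 CPM, and fibroblast markers to 11.3 to 12.2 and 13.1 to 14.3 CPM with 4 of 4. The 5 dendritic cell markers, 3 of them above 1 CPM, summed to 3.32 to 4.23 CPM in PBS and 10.0 to 11.0 in LPS. Erythroid markers reached at most 0.268 CPM in sum, with 3 of 4 at or under 3 counts. The part of the higher sums in LPS in the results below was not tested. In bulk RNA, fewer cells of a type and less RNA per cell cannot be told apart.

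All 10 genes rose after 1 h with LPS, by 2.09-fold for Rela to 47.7-fold for Nfkbiz, where 10.5% of the 15687 genes tested rose and 10.4% fell by the same criteria (adjusted p under 0.05 in edgeR's quasi-likelihood test with Benjamini-Hochberg adjustment, and a log2 fold change beyond 1 in size). For each of the 10, every LPS library lay above every PBS library. How many of all tested genes were separated in this way is not given here, so this separation is not particular to the 10. By the adjusted p alone, 32.9% of all tested genes were higher in LPS. The median log2 fold change of the 10 was 3.11, at 2.50 for the 5 subunit genes and 4.35 for the 5 IkB genes. None was among the 100 largest rises of the whole table, and 6 were among the 500 largest, with Nfkbiz at rank 151. Together they took 0.0543 to 0.0563% of all counts in PBS libraries and 0.591 to 0.616% in LPS libraries.

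**Figure D1:**
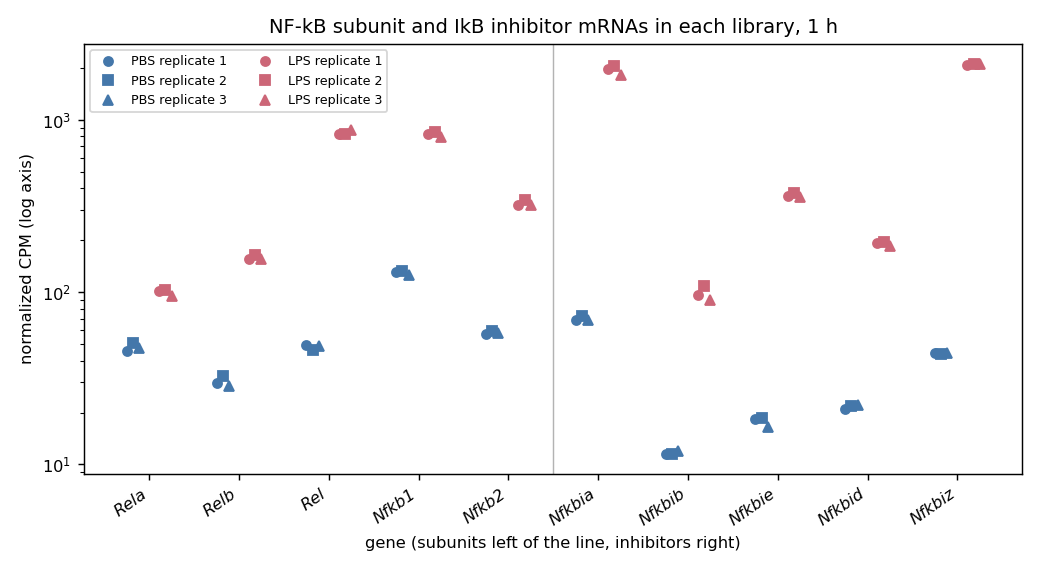
Normalized CPM (log axis) of the 5 subunit genes and the 5 IkB genes in each of the 3 PBS and 3 LPS libraries, 1 point per library with the marker shape giving the replicate number. The gap between the groups is smallest for Rela and largest for Nfkbiz.

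Rela encodes RelA (p65), the transactivating partner of the most common NF-kB dimer. The gene (chr19:5637483-5648130, plus strand, GENCODE M21 on GRCm38) had 2168, 2284 and 2198 counts in PBS libraries 1 to 3 and 3423, 3367 and 3224 in LPS libraries 1 to 3. The groups were apart, and the CV between replicates was 5.27% in PBS and 4.57% in LPS. Its level went from 47.9 ± 2.52 to 99.96 ± 4.57 CPM (mean ± SD, n = 3 per group), and the log2 fold change was 1.06 (SE 0.04, adjusted p = 3.09e-13). By the adjusted p alone, 32.9% of all tested genes were higher in LPS. The 95% interval of 0.97 to 1.16 contained 1, and a test against a log2 fold change of 1 gave an adjusted p of 0.176, so a rise of Rela beyond 2-fold was not shown. Without TMM factors the estimate was 0.66, and by the upper quartile 0.92, both under the criterion of 1.

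Relb (chr7:19606217-19629438, minus strand) encodes the subunit that pairs with p52 in the non-canonical pathway. Its counts were 1408, 1462 and 1321 in PBS and 5211, 5384 and 5323 in LPS. No LPS library came near the PBS range, and the level went from 30.2 ± 1.94 to 158.9 ± 5.29 CPM, a log2 fold change of 2.40 (SE 0.05, adjusted p = 1.62e-18).

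Rel (chr11:23736847-23770970, minus strand) encodes c-Rel, a subunit most prominent in blood cells. It had 2352, 2095 and 2253 counts in PBS and 27881, 26985 and 29569 in LPS. In counts, which are not corrected for gene length, it started near Rela and ended far above it. Per length it started below Rela, as given further on. The level went from 48.2 ± 1.61 to 842 ± 23.2 CPM, and its log2 fold change of 4.13 (SE 0.04, adjusted p = 1.36e-22) was the largest among the subunits, with an interval of 4.04 to 4.21 that was clear of the next, Nfkb1, at 2.59 to 2.75.

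Nfkb1 (chr3:135584655-135691547, minus strand), the gene of p105 and p50, had 6235, 5946 and 5818 counts in PBS and 27545, 27854 and 27135 in LPS. Normalized, this was a move from 129.5 ± 3.01 to 824 ± 28.2 CPM, a log2 fold change of 2.67 (SE 0.04, adjusted p = 2.06e-20). Nfkb2 (chr19:46304320-46312385, plus strand), the gene of p100 and p52, had 2702, 2681 and 2667 counts in PBS and 10739, 11137 and 10895 in LPS. Both precursor genes were tight within each group, with CVs of 2.25 to 3.73%. Nfkb2 went from 58.0 ± 1.31 to 327 ± 12.2 CPM, a log2 fold change of 2.50 (SE 0.04, adjusted p = 5.42e-20).

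Nfkbia (chr12:55489410-55492647, minus strand) encodes IkBα, the inhibitor best known for its rapid loss and resynthesis in the NF-kB loop. Its counts were 3286, 3293 and 3173 in PBS and 66016, 66744 and 61686 in LPS. LPS library 3 was the lowest of its group and still lay far above every PBS library. The level went from 70.2 ± 2.31 to 1942 ± 118 CPM, a log2 fold change of 4.79 (SE 0.05, adjusted p = 2.57e-22). With this change it moved from rank 2505 to rank 62 of all tested genes by CPM.

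Nfkbib (chr7:28758251-28767512, minus strand) encodes IkBβ, a classical inhibitor known for slower turnover. It had the lowest counts of the 10 in PBS, 545, 519 and 551, against 3211, 3535 and 3073 in LPS. The LPS libraries spread most here, with a CV of 9.43% and library 2 the highest. Nfkbib went from 11.6 ± 0.275 to 98.1 ± 9.25 CPM, a log2 fold change of 3.08 (SE 0.06, adjusted p = 4.81e-18).

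Nfkbie (chr17:45555703-45563169, plus strand) encodes IkBε, the third classical inhibitor. Its counts were 873, 842 and 758 in PBS and 12046, 12244 and 12179 in LPS. The level went from 17.8 to 364 CPM (SD 1.198 and 9.68), and the log2 fold change of 4.35 (SE 0.05, adjusted p = 3.78e-22) was larger than that of Nfkbib, with intervals of 4.26 to 4.45 and 2.95 to 3.21.

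The nuclear IkB proteins act on chromatin with NF-kB dimers rather than holding them in the cytoplasm. Nfkbid (chr7:30421732-30428746, plus strand), the gene of IkBNS, had 994, 987 and 1025 counts in PBS and 6475, 6396 and 6266 in LPS. Nfkbid went from 21.6 ± 0.692 to 191 ± 6.16 CPM, a log2 fold change of 3.14 (SE 0.04, adjusted p = 6.13e-21). Nfkbiz (chr16:55811375-55838899, minus strand) encodes IkBζ, which is needed for a set of secondary response genes such as Il6. It had 2116, 1963 and 2035 counts in PBS and 69736, 69074 and 71394 in LPS. This was the tightest of the 10 in both groups, with CVs of 1.14 and 0.913%. The level went from 44.0 ± 0.503 to 2097 ± 19.2 CPM, a log2 fold change of 5.57 (SE 0.04, adjusted p = 2.69e-24).

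Ordered by the mean log2 ratio of same-numbered libraries, the changes ran Nfkbiz, Nfkbia, Nfkbie, Rel, Nfkbid, Nfkbib, Nfkb1, Nfkb2, Relb and Rela. The ranges of these ratios overlapped for a single pair of neighbours, Nfkbid with 3.05 to 3.21 and Nfkbib with 2.92 to 3.24. These ranges rest on the assumed pairing of libraries by number. The intervals of the fit, which used no pairing, overlapped for Nfkbid and Nfkbib too. They also overlapped for Nfkb2, with 2.42 to 2.58, and Relb, with 2.30 to 2.49. Neither pair was therefore separated. Rel, with log2 ratios of 4.07 to 4.16, was the only subunit gene among the 4 largest. Among the genes with promoter windows, Nfkbia, Nfkbie, Rel, Nfkbid and Nfkb2 held a kB match. Their log2 fold changes were 4.79, 4.35, 4.13, 3.14 and 2.50 in that order. Those of Nfkbib and Rela, whose windows hold none, were 3.08 and 1.06. The window of Nfkbib lies inside the annotated gene and does not reach its 5′ end. A link between matches and changes was not tested.

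**Figure D2:**
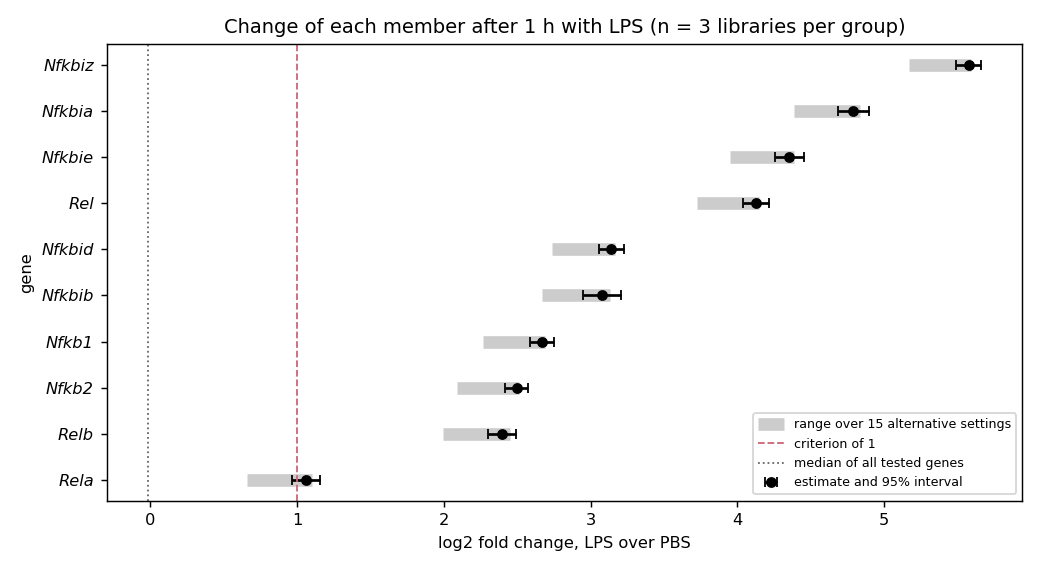
Log2 fold change of each gene in LPS over PBS (black point) with its 95% interval, the range over 15 alternative settings (grey bar), the criterion of 1 (dashed) and the median of all tested genes (dotted). The interval and grey bar of Rela alone reach below 1.

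Levels were next compared between genes per length, as RPKM scaled by TMM over the union of annotated exons. In PBS, Nfkbia stood highest of the 10 at 43.6 ± 1.44 RPKM, followed by Rela at 15.6 ± 0.821, Nfkb2 at 12.6 ± 0.285 and Nfkb1 at 10.7 ± 0.250. The other 6 lay between 9.23 (Nfkbid) and 5.36 RPKM (Nfkbib), and Nfkbib and Nfkbie, at 5.85, were the only neighbours whose ranges overlapped. In LPS, Nfkbia reached 1206 ± 73.5 RPKM, Nfkbiz 418 ± 3.82, Nfkbie 120 ± 3.18 and Rel 113 ± 3.11. The lowest was Rela at 32.5 ± 1.49 RPKM. Nfkbid stood at 81.4, and the neighbours Nfkb2 and Nfkb1, at 71.4 and 68.3, overlapped, as did Nfkbib and Relb, at 45.2 and 40.9.

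**Figure D3:**
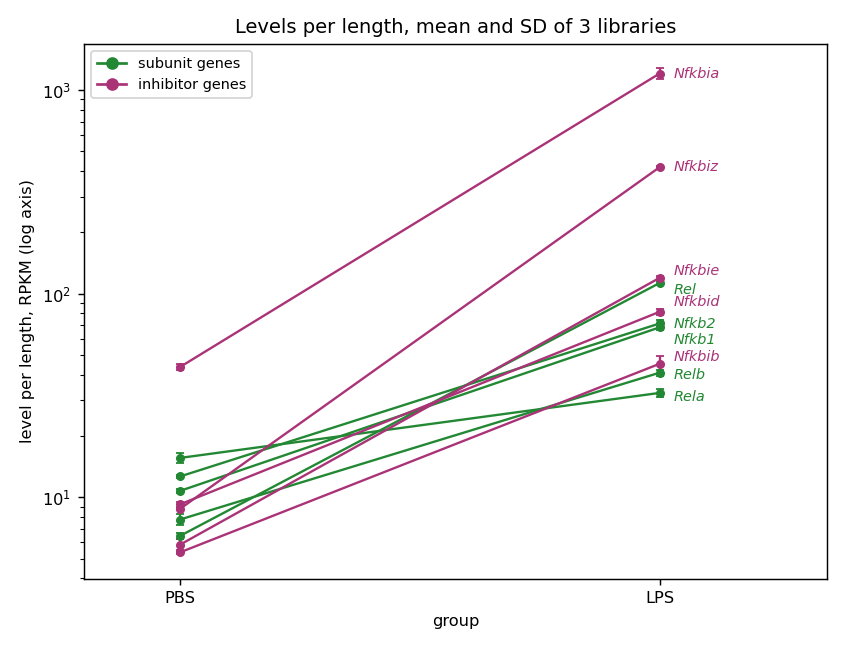
Level per length (RPKM, log axis) of each gene in PBS and LPS, mean and SD of 3 libraries, with subunit genes in green and IkB genes in purple. Lines of Rela and Rel cross: Rela went from 15.6 to 32.5 RPKM and Rel from 6.46 to 113 RPKM.

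The order of the subunits depends on the length used for Nfkb1. Its annotated exons cover 12061 bases in union, while its longest transcript has 4149 bases. The gap was smaller for the other 9 genes, for instance 5018 and 4115 bases for Nfkbiz, and for Rel both lengths were 7466 bases. With union lengths Nfkb1 held 20.2 ± 0.496% of the summed subunit level in PBS and 20.96 ± 0.458% in LPS, ranges that overlapped. With the longest transcripts it held 39.2 and 41.2% and stood above Rela and Rel in both groups.

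The makeup of the subunit mRNAs changed mostly between Rela and Rel. Per length, Rela held 28.3, 30.0 and 29.5% of the summed subunit level in the PBS libraries and 10.3, 10.1 and 9.53% in the LPS libraries. Rel held 12.7, 11.3 and 12.5% in PBS and 34.5, 33.4 and 36.0% in LPS. The ratio of Rel to Rela was 0.415 ± 0.0350 in PBS and 3.47 ± 0.261 in LPS. It was 0.367 and 3.07 with the longest transcripts, 0.208 and 1.74 with median lengths of coding transcripts, and 1.01 and 8.44 with no length correction, so its size depends on length, while it was higher in LPS under all 4. Relb went from 14.6 to 12.5% and Nfkb2 from 23.8 to 21.9%. With median lengths of coding transcripts Nfkb2 stood at 16.4 and 16.6% instead. The shares of the 2 groups overlapped for Nfkb1 alone among the 5 with union lengths.

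Among the IkB mRNAs, Nfkbia held most in both groups, 59.9 ± 0.654% of the summed level per length in PBS and 64.5 ± 1.10% in LPS. Without a length correction its share was 42.5 and 41.4% and that of Nfkbiz 26.6 and 44.7%, so both the gain of Nfkbia and its lead over Nfkbiz in LPS depend on length. Nfkbiz went from 12.0 ± 0.391 to 22.4 ± 0.961%, Nfkbid from 12.7 ± 0.437 to 4.36 ± 0.0615% and Nfkbib from 7.36 ± 0.284 to 2.42 ± 0.128%. Nfkbie went from 8.03 ± 0.458 to 6.40 ± 0.176%. Nfkbid and Nfkbib thus rose in level and lost share, since Nfkbia and Nfkbiz rose more.

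The summed IkB level per length was 1.37 ± 0.00725 times the summed subunit level in PBS and 5.74 ± 0.199 times in LPS. This ratio was 0.972 and 4.16 with the longest transcripts, 0.738 and 3.33 with median lengths of coding transcripts, and 0.527 and 2.08 with no length correction. Its value in each group therefore depends on length, while it was higher in LPS under all 4. Against Rela alone, Nfkbia stood at 2.80 ± 0.0804 in PBS and 37.0 ± 0.691 in LPS. These are ratios of mRNA levels, and protein was not measured.

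**Figure D4:**
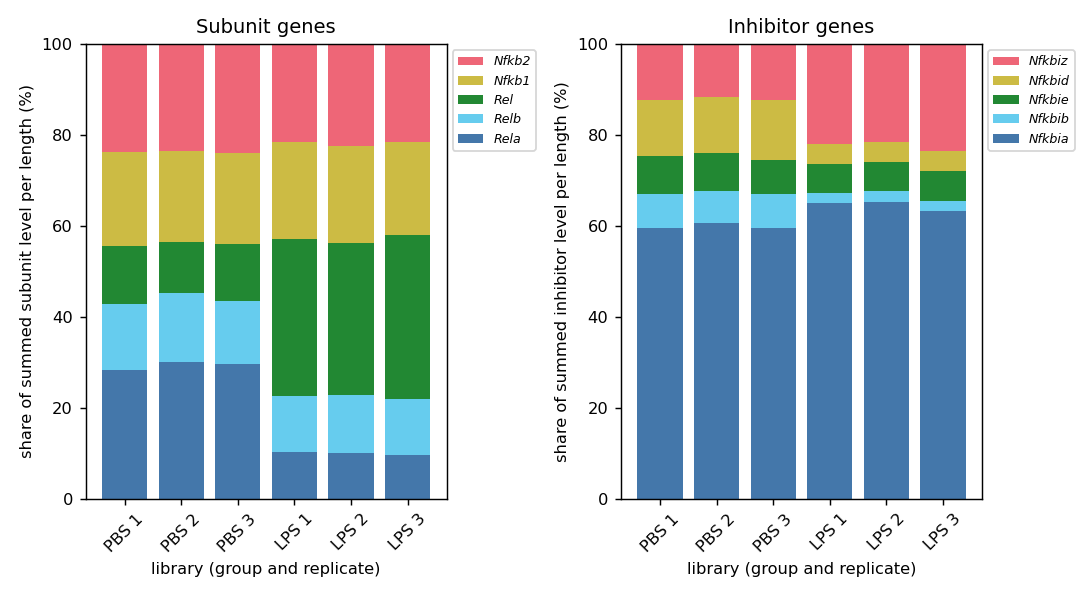
Share of each gene in the summed level per length (percent) of the 5 subunit genes (left) and the 5 IkB genes (right), 1 bar per library. Rel holds 33.4 to 36.0% of the subunit level in LPS against 11.3 to 12.7% in PBS, and Nfkbiz holds 21.6 to 23.5% of the IkB level against 11.6 to 12.3%.

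Several annotated genes lie within or across these genes. Gm43430 (chr3:135650670-135654566), a gene model that awaits experimental support, lies inside Nfkb1 on the same strand and shares no exonic base with it. It had 135, 149 and 149 counts in PBS and 2936, 2970 and 3043 in LPS, a log2 fold change of 4.84 (SE 0.06, adjusted p = 1.77e-21). Its counts equalled 2.41 ± 0.214% of those of Nfkb1 in PBS and 10.8 ± 0.320% in LPS, and all 3 LPS values lay above the PBS values (exact permutation test, two-sided, p = 0.1, the smallest that 3 against 3 libraries allow). Total RNA holds unspliced transcripts, and their part in these counts was not tested.

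AC114539.1 (chr19:46303591-46305611) is a noncoding gene on the opposite strand, annotated as arising from a bidirectional promoter, and shares 531 exonic bases with Nfkb2. It had 303, 282 and 288 counts in PBS and 652, 691 and 688 in LPS, a log2 fold change of 1.69 (SE 0.07, adjusted p = 1.68e-13). Sirt2, a deacetylase gene on the opposite strand, shares 42 exonic bases with Nfkbib. It had 3224, 3065 and 3052 counts in PBS and 2847, 2855 and 3016 in LPS, and its log2 fold change of 0.37 (SE 0.04) turned to -0.033 without TMM factors. The libraries mark strand, but the strand setting of the counting was not given in the sources used here, so reads in shared bases are uncertain. In PBS the counts of AC114539.1 were below those of Nfkb2, whereas those of Sirt2 were above the 519 to 551 counts of Nfkbib. The part of shared bases in the counts of Nfkb2 and Nfkbib was not tested.

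Genes that act upstream of the 10 were read beside the shares of all tested genes, 10.5% that rose and 10.4% that fell. Of 16 receptor, adaptor, IRAK and TRAF genes, 3 rose, 1 fell and 12 did not pass the criteria, and the median log2 fold change was 0.34. The risers were Cd14, the LPS co-receptor (3.19, SE 0.03), Irak2, a kinase that sustains TLR signalling (2.00, SE 0.03), and Traf3, which restrains the non-canonical pathway (1.05, SE 0.04). Traf3 stood at 0.65 without TMM factors and at 0.91 by the upper quartile. Tirap, the adaptor that brings MyD88 to the membrane, fell to 0.487 of its PBS level, a log2 fold change of -1.04 (SE 0.06). This lies past the criterion by less than its SE, so a fall of Tirap beyond 2-fold was not shown. A pair of central genes that did not pass the criteria, chosen for mention after their values were seen, are Tlr4, the receptor, at -0.75 (SE 0.04) and Myd88, its adaptor, at 0.66 (SE 0.05). Tlr4 had 10042 to 11559 counts in PBS and 4267 to 4896 in LPS, a ratio of normalized levels of 0.597, and stood at -1.15 without TMM factors, past the criterion.

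Of 19 genes for IkB kinases, NIK and ubiquitin ligases, 1 rose and 1 fell, with a median of 0.20. Map3k14, the gene of NIK, which drives processing of p100, rose by 1.23 (SE 0.04) and stood at 0.83 with library size alone. Tab1, a partner of the kinase TAK1, fell by 1.41 on the log2 scale (SE 0.07). The genes of the IkB kinase complex itself, also named after their values were seen, stayed within the criterion, with log2 fold changes of 0.74 (SE 0.03) for Ikbkb, -0.47 (SE 0.04) for Ikbkg and 0.20 (SE 0.04) for Chuk, which stood at -0.20 with library size alone.

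Of 12 deubiquitinase and other brake genes, 4 rose, with a list median of 0.38. Tnfaip3, the gene of A20, which removes ubiquitin chains from the signalling complexes, had 1714 to 1894 counts in PBS and 133277 to 136489 in LPS. Its log2 fold change of 6.70 (SE 0.04) exceeded that of each of the 10 genes. Tnip3 and Tnip1, which encode A20-binding proteins, rose by 4.17 (SE 0.05) and 2.47 (SE 0.04), and Zc3h12a, the gene of the ribonuclease Regnase-1, by 3.59 (SE 0.05). The other 8 lay between -0.43 and 0.81.

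Among 8 further IkB-related genes the median was 0.03, and 1 rose and 1 fell. The riser was Bcl3, an atypical IkB protein that binds p50 and p52 dimers, with 581, 671 and 616 counts in PBS, 2003, 2168 and 2051 in LPS and a log2 fold change of 2.21 (SE 0.06, adjusted p = 8.58e-16). Nfrkb, a chromatin remodelling subunit named for binding kB sites, fell by 1.13 on the log2 scale (SE 0.05). Of 13 nuclear cofactor and import genes, Kpna3, an importin alpha, rose by 1.47 (SE 0.04), and the median was 0.13.

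The 33 well-known NF-kB target genes rose in 31 cases, with a median of 4.26. The 2 others, Bcl2l1 at 0.32 and Xiap at 0.27, protect cells from apoptosis. The largest changes belonged to the cytokine genes Csf3, Il1b (11.77) and Il6 (11.63), the chemokine gene Cxcl1 (11.22) and Ptgs2 (12.11), the gene of cyclooxygenase-2. Csf3 was at 0 counts in each PBS library and at 673 to 713 in LPS. Il6 had 1, 2 and 4 counts in PBS, and its log2 fold change was 12.22 without PBS library 3. Csf3 and Csf2, at or under 3 counts in every PBS library, lie above the median of the list at their lower bounds too. Over all 6 lists, 41 genes rose, 3 fell and 57 did not pass, with a median of 0.52. These lists were written with earlier results of these data known, and their counts are a description.

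**Figure D5:**
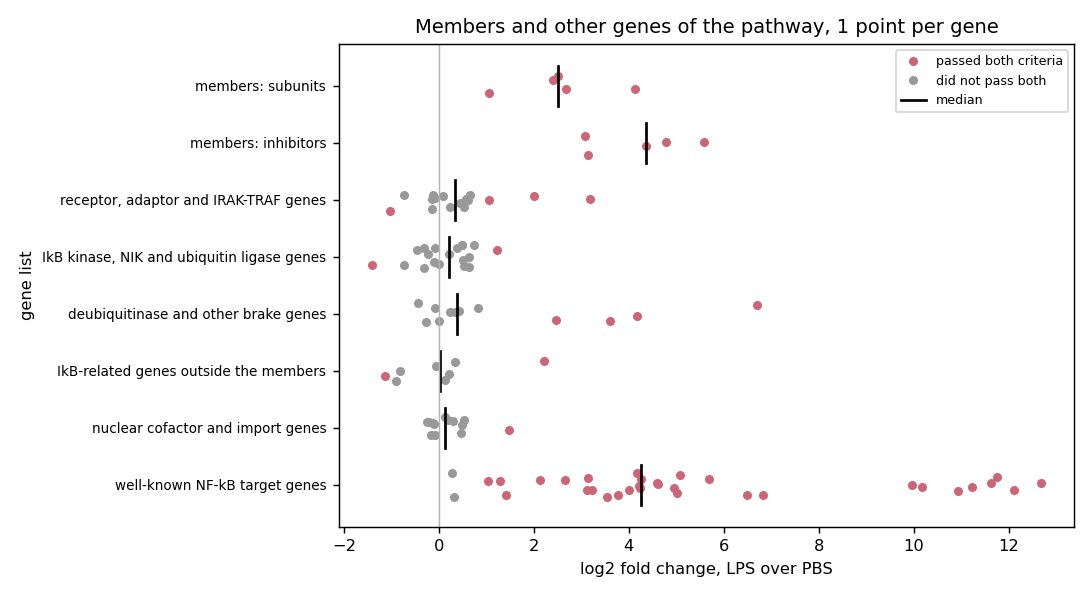
Log2 fold change in LPS over PBS of the 5 subunit genes, the 5 IkB genes and the genes of 6 pathway lists, 1 point per gene, with genes that passed both criteria in red and the median of each list as a bar. The medians are 2.50 and 4.35 for subunit and IkB genes and 4.26 for target genes, against 0.03 to 0.38 for the other 5 lists; points of genes near 0 counts in PBS depend on the prior count of the fit.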

How the data were processed

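Total RNA of 6 BMDM libraries was analysed, 3 given PBS and 3 given LPS for 1 h, grouped by the titles in the labels. The raw counts per gene that the authors deposited came from alignment with HISAT2 2.1.0 against GRCm38, handling with SAMtools 1.17 and counting by featureCounts 2.0.0, tools also named in the submitters' processing notes. The annotation release and strand setting were not given in the sources used here. Of 55335 identifiers, 55154 matched GENCODE M21 without the version suffix, which gave symbols, coordinates and lengths.

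From these counts, edgeR 4.0.16 in R 4.3.3 was run with its default filter, TMM scaling and the quasi-likelihood test. P-values were adjusted by Benjamini-Hochberg over all 15687 tested genes. A call needed an adjusted p under 0.05 and a change beyond 1 on the log2 scale in either direction, as in the study. Intervals cover 95%. RPKM used TMM-scaled library sizes. Library totals of 37787611 to 41516330 counts set the precision. Promoters came from RefSeq. In a simulation of this comparison over 15687 genes with 200 changed by 2 on the log2 scale, edgeR recovered 200 with 1 false call. Every simulated gene had the same coefficient of variation beyond counting noise, 0.05, and only well-counted genes were changed. Such a result was nearly fixed in advance and checks only that the steps ran as intended.

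The members and lists were chosen with earlier results of these data known. Named genes are the 10 members, at most 5 called genes per pathway list and direction, Bcl3, and genes overlapping a member's exons at a mean of at least 10 counts. Gm43430, Tlr4, Myd88, Chuk, Ikbkb, Ikbkg, Bcl2l1, Xiap and Csf2 were named outside this rule, after their values were seen. The batch numbers were taken to pair the libraries across groups, though the labels do not say what a batch is. Correlations of deviations were -0.0139 to 0.0822 for same-numbered libraries and -0.0817 to 0.0446 for the others. Alternatives were DESeq2 1.42.0, limma 3.58.1 voom, other scalings and filters, the batch block, leaving out each library, the 10 most abundant genes left out, a test against a log2 fold change of 1, other gene lengths and a wider motif.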

Additional observations from a re-analysis of the deposited data

How the results depend on the processing

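All 10 genes were called in every alternative except 3 in which Rela alone was lost and 9 were called: library size alone (log2 fold change 0.66), upper-quartile scaling (0.92) and the test against a log2 fold change of 1. No gene of the 10 reversed. With the replicate block for the batch numbers, the assumed pairing changed no call of the 10, and their median log2 fold change stayed at 3.11. Counts of all genes that fell were 1624 and became 2964 with library size alone, 1027 with at least 10 counts required in every library, which tests fewer genes, and 922 with the test against a log2 fold change of 1. The pathway lists held 3 genes that fell and 7 with library size alone. With that scaling Sirt2 stood at -0.033 and Chuk at -0.20, both reversed. The share of Nfkbia in the summed IkB level was 57.5% in PBS and 61.4% in LPS with the longest transcripts, 53.4 and 58.8% with median coding transcript lengths and 42.5 and 41.4% with no length correction. The share of Nfkb1 in the summed subunit level was 39.2 and 41.2%, 38.2 and 43.6%, and 41.3 and 36.6% in the same order. The wider motif, which lets the third base be A or G, was held by 11.2% of all windows and by 63.6% of the 11 windows of these genes. Leaving out 1 library at a time kept Rela between 1.02 and 1.10. Depth was not limiting for the 10 genes, which had at least 519 counts in every library.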
